A study of Mus musculus with 16 samples.

Results

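Mucins are heavily O-glycosylated proteins that coat the apical face of epithelia, the face that borders a lumen. This account describes the RNA of 4 cell-surface mucins, Muc1, Muc4, Muc15 and Muc20, and of Dmbt1, a secreted scavenger receptor cysteine-rich glycoprotein of mucosal surfaces. These 5 genes, of 17097 measured, were chosen by name for this description with earlier results of the same arrays in view. Those results included the comparison of Cpeb2 knockout with wild type in ductal progenitors, in which Dmbt1 had been among the genes with the largest rises. Each gene was read from its annotated probe set with the highest mean over 16 arrays. The p-values below come from fits over all genes and describe where these genes stand in them, and they give no independent support for a pattern that led to the choice.

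RNA came from freshly sorted mammary epithelial cells of 4 female mice aged 10 weeks and 2 days, of the strain labelled C57BL/6J 129. The labels give Sox2-Cre +/+ for all 4 animals, of which 2 were Cpeb2 -/- and 2 were Cpeb2 +/+, so that wild type here carries the Cre as well. Sox2-Cre is a transgene known to be active in the early embryo, so the deletion is not one made in the mammary epithelium alone. Mouse 1 of each genotype had the same father and mother, and mouse 2 of each genotype had another shared pair of parents. Every mouse gave 4 populations, hence 4 arrays, so the 8 groups hold 2 arrays each. Myoepithelial cells are the contractile basal layer and were sorted as Epcam low and CD49f high. Luminal cells, Epcam high and CD49f low, were divided by Sca1 and CD49b. Those with Sca1 but not CD49b are called non-clonogenic luminal, here NCL cells, those with both ductal progenitors, and those with CD49b but not Sca1 alveolar progenitors. Values are deposited log2 expression values of Affymetrix probe sets. With 2 mice per group the number of arrays limits the precision. The p-values rest on a single spread per gene, estimated over all 8 groups together with help from other genes. The standard error of a gene's knockout difference is therefore the same in every population and does not show the spread within that population.

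MUC1 spans the apical membrane of luminal cells, is shed from it and carries a signalling tail, and it leaves the mammary cell on the membrane that wraps milk fat globules. MUC15 is another membrane-bound mucin known from that milk fat globule membrane. MUC4 has EGF-like domains and is known to bind the receptor ERBB2, and MUC20 is known to bind the receptor MET. DMBT1, also called gp-340, salivary agglutinin or, in the kidney, hensin, binds bacteria and surfactant protein D and acts in epithelial differentiation. CPEB2, whose gene was deleted, is an RNA-binding protein that controls when messenger RNAs with its recognition element are translated.

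The start regions of the mucin genes are printed because these genes, by the probe sets used, shared a maximum in alveolar progenitors, described further on. For Muc4 another probe set did not show it. Sequences were found for 3 of the 5 genes, Muc1, Muc4 and Muc20, and come from RefSeq on GRCm38.p6. Each runs 5′ to 3′ on the gene's own strand, and covers 300 bases, most of them upstream of the annotated start. Capitals mark matches, on either strand, to 5 motifs: the TATA box (TATAAA), the GC box (GGGCGG), the ETS core with a flank (GGAAG), the E-box of SNAI and ZEB repressors (CAGGTG) and the STAT palindrome (TTCNNNGAA).
Muc1 promoter, GRCm38.p6 chr3:89228806-89229105, plus strand: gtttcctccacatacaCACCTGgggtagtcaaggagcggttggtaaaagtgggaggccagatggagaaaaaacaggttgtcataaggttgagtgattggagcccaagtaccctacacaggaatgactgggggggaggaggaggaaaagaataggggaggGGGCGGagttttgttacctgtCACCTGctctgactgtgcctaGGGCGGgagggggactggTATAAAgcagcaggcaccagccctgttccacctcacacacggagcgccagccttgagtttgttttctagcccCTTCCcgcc
Muc4 promoter, GRCm38.p6 chr16:32735636-32735935, plus strand: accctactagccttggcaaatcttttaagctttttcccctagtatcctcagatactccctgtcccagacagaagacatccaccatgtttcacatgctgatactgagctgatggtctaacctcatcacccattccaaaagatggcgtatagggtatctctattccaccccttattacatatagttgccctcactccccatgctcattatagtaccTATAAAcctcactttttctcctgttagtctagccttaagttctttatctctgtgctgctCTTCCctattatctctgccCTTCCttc
Muc20 promoter, GRCm38.p6 chr16:32797386-32797685, minus strand: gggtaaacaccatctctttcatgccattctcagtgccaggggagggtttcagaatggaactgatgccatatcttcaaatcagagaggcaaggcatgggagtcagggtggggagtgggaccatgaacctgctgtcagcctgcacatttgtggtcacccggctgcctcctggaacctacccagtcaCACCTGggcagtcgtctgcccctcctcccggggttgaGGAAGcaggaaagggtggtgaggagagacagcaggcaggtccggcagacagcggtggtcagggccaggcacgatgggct
Muc1 held a TATA box 31 bases before its start, 2 GC boxes and 2 SNAI and ZEB E-boxes. Muc4 held a TATA box 36 bases before its start and 2 ETS cores after it. Muc20 held neither a TATA box nor a GC box, and had 1 ETS core and 1 E-box upstream. No STAT palindrome lay in any of the 3 windows, which says only that these letters are not there. Of 32851 promoter windows of this length, 13.6% held the TATA box, 35.7% the GC box, 71.4% the ETS core, 20.2% the E-box and 8.3% the STAT palindrome. These matches describe letters and not occupied sites. The annotated Muc4 and Muc20 gene models overlap on opposite strands, and no source used here says whether the labelled cDNA kept the strand. Signal of one therefore cannot be told apart from signal of the other where a probe set lies in the overlap.

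Cpeb2, the deleted gene, read lower in both knockout arrays than in both wild-type arrays of each population. In NCL cells it read 8.33 and 8.66 in wild type against 6.42 and 7.67 in knockout, and in ductal progenitors 7.88 and 8.00 against 6.39 and 7.35. In alveolar progenitors it read 5.52 and 5.53 against 5.45 and 4.81, and in myoepithelial cells 5.41 and 6.03 against 5.25 and 4.71. By limma the Cpeb2 difference was called in no single population (adjusted p = 0.0933 in NCL cells to 0.925 in alveolar progenitors). It was called in the mean of the 4 populations (-0.92 ± 0.21, adjusted p = 0.0201). The sources used here do not give whether this probe set lies in the deleted stretch. No member lies on the chromosome of Cpeb2. All 8 measured myoepithelial markers were higher, and all 10 luminal markers lower, in myoepithelial cells than in the mean of the 3 luminal populations (48% of all genes called). All 9 measured hormone-sensing markers were higher, and 9 of 12 alveolar markers lower, in ductal than in alveolar progenitors (22% of all genes called). Between NCL cells and ductal progenitors 0 of 9 hormone-sensing and 0 of 10 luminal markers were called. There 7 of 12 alveolar markers were lower in NCL cells (0.795% of all genes called). Below 5.13, the lower quartile over all probe sets, on every array were 3 of 11 leukocyte markers (Ptprc, Cd3e and Itgam), 2 of 7 fibroblast markers (Col1a2 and Pdgfra), 2 of 3 adipocyte markers (Adipoq and Lep) and 0 of 7 endothelial markers. The mean log2 value of the fibroblast list ran from 5.52 to 8.24, the highest being the wild-type ductal array of mouse 1. Of the 7 endothelial markers 6 were higher in myoepithelial cells than in the luminal mean, and their part in differences from myoepithelial cells was not tested. Array medians ran from 6.35 to 6.40 and replicate arrays correlated at r = 0.977 to 0.992 over probe sets.

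By the probe sets used, all 4 mucins were highest in alveolar progenitors, and Dmbt1 was highest in the Sca1 positive luminal populations. The other Muc4 probe set showed no such maximum. Muc1 had a graded order, alveolar progenitors above ductal progenitors above NCL cells above myoepithelial cells. Muc15 covered the widest range among the mucins and was near the floor of the array outside the progenitors. Dmbt1 ran against this order among luminal cells, with its lowest luminal level in alveolar progenitors. The plot of the 16 values of each gene shows these orders.

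**Figure D1:**
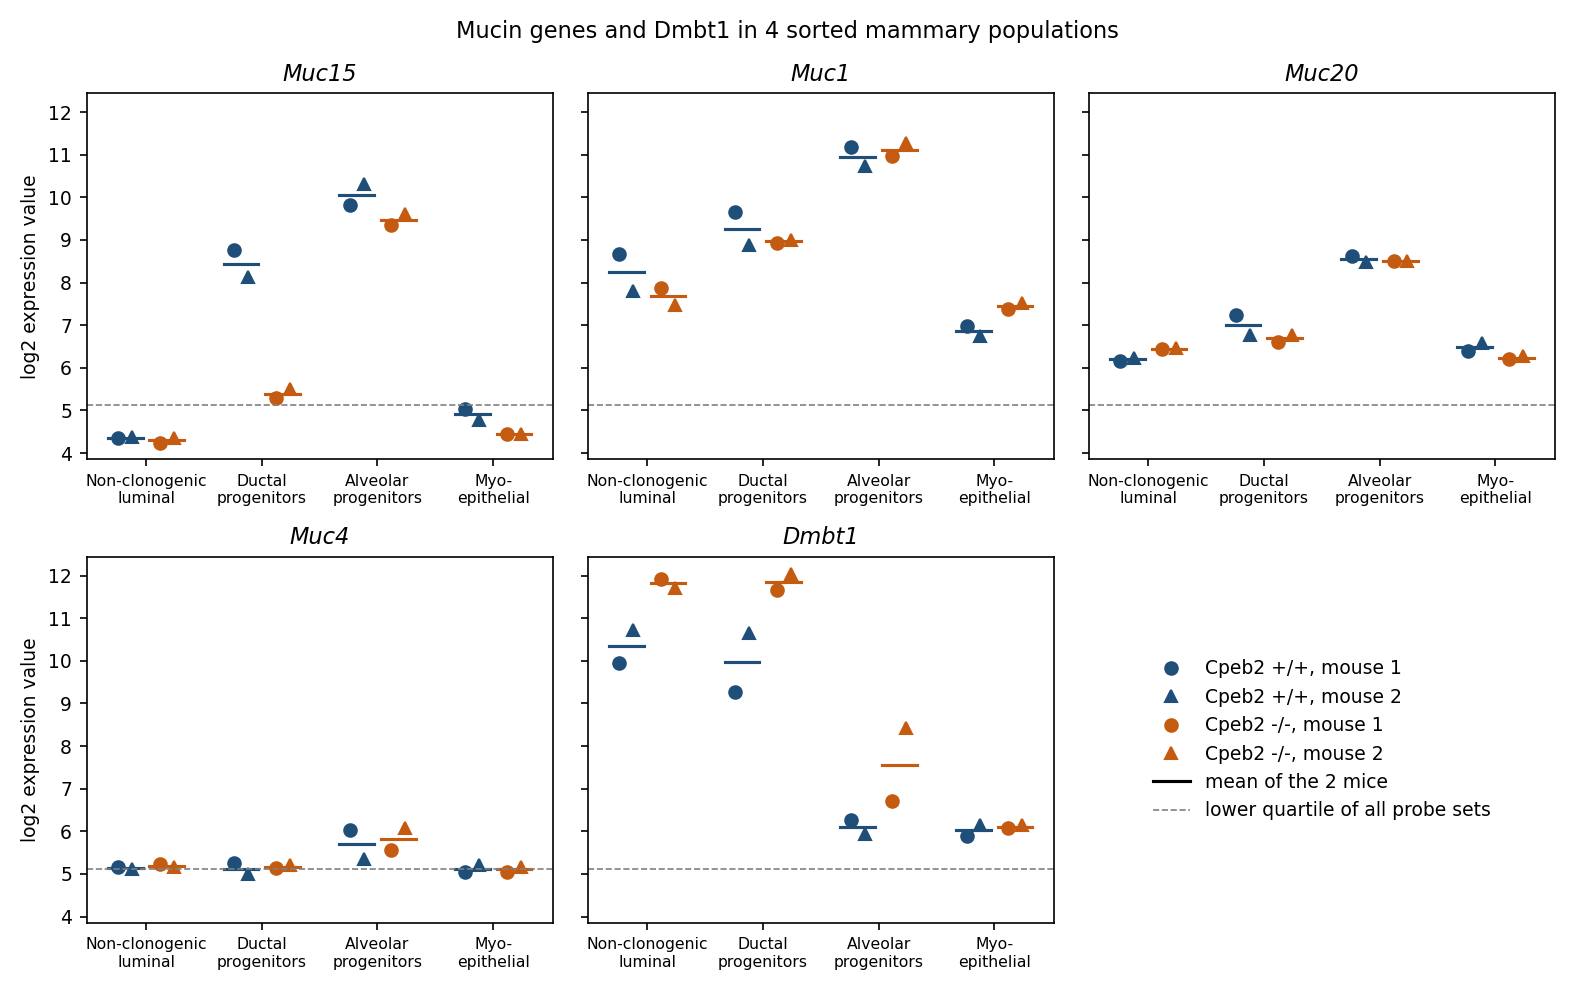
Log2 expression value (y axis) of each of the 5 genes in the 4 sorted populations (x axis), with blue for Cpeb2 +/+ and orange for Cpeb2 -/-, circles for mouse 1 and triangles for mouse 2 of a genotype. Bars are means of 2 mice and the dashed line is the lower quartile of all probe sets, 5.13. Muc15 in ductal progenitors reads 8.76 and 8.13 in wild type and 5.28 and 5.50 in knockout, while Dmbt1 there reads 9.27 and 10.66 against 11.66 and 12.04. Levels of different genes come from different probe sets and are not comparable with each other.

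Muc1 in alveolar progenitors read 11.17 and 10.73 in the 2 wild-type mice and 10.98 and 11.26 in the 2 knockout mice. In ductal progenitors it read 9.65 and 8.88 in wild type and 8.93 and 9.01 in knockout. In NCL cells it read 8.68 and 7.80 against 7.87 and 7.48. All alveolar arrays lay above all ductal ones and all ductal above all NCL ones, the closest readings of the latter being 8.88 and 8.68. In myoepithelial cells Muc1 read 6.99 and 6.74 in wild type and 7.39 and 7.52 in knockout, so that 1 of the 2 knockout arrays there lay above the lowest NCL array, 7.48. As the mean of both genotypes, the Muc1 difference of ductal minus alveolar progenitors was -1.92 ± 0.21 log2 units (± standard error of the limma fit, 4 arrays against 4, adjusted p = 3.65e-05). The difference of NCL cells minus ductal progenitors was -1.16 ± 0.21 (adjusted p = 0.0204) and that of myoepithelial minus NCL cells -0.80 ± 0.21 (adjusted p = 0.00774). The last of these differences was -1.38 in wild type alone (adjusted p = 0.0336) and -0.22 in knockout alone (adjusted p = 0.395), and it was not called without knockout mouse 1 (adjusted p = 0.181) or knockout mouse 2 (adjusted p = 0.0732).

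Muc15 in alveolar progenitors read 9.82 and 10.30 in wild type and 9.35 and 9.60 in knockout. Its readings were far lower in NCL cells, 4.35 and 4.37 in wild type and 4.25 and 4.35 in knockout. In myoepithelial cells they were 5.04 and 4.77 against 4.45 and 4.46. All 8 of these low readings lie under that quartile, so differences from these populations are read as lower bounds. Against alveolar progenitors the Muc15 difference was -5.44 ± 0.14 log2 units in NCL cells (adjusted p = 3.73e-10) and -5.09 ± 0.14 in myoepithelial cells (adjusted p = 9.57e-11). The difference of ductal minus alveolar progenitors was -2.85 ± 0.14 (adjusted p = 1.46e-07) over both genotypes, which were unlike: the difference was -1.62 in wild type alone and -4.08 in knockout alone. Myoepithelial and NCL cells differed by 0.35 ± 0.14, which did not pass the threshold (adjusted p = 0.0636). It passed in 5 of 20 fits without a mouse or an array, those without wild-type mouse 2 (0.43, adjusted p = 0.00921) or without any 1 of the wild-type ductal and alveolar arrays (adjusted p = 0.0236 to 0.0411).

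Muc20 read 8.63 and 8.48 in wild-type and 8.51 and 8.49 in knockout alveolar progenitors. In ductal progenitors it read 7.23 and 6.76 in wild type and 6.61 and 6.77 in knockout. In the remaining populations it lay between 6.16 and 6.58. Alveolar progenitors thus stood apart from every other array. The difference of ductal minus alveolar progenitors was -1.68 ± 0.11 (adjusted p = 6.05e-07), and myoepithelial and NCL cells could not be separated (0.04 ± 0.11, adjusted p = 0.772). The difference of NCL cells minus ductal progenitors was -0.52 ± 0.11 (adjusted p = 0.0466) and was called in 3 of 10 alternatives. It was lost with parent pair as a block (adjusted p = 0.0693), with no mouse block (0.0527), after a further quantile normalization (0.0713), with every probe set tested (0.0779), with the mean of both probe sets (0.571) and in either genotype alone (0.357 in wild type, 1 in knockout). A second Muc20 probe set read 8.22 and 7.26 in wild-type and 7.06 and 8.08 in knockout alveolar progenitors and 5.59 to 6.10 elsewhere; it had the same maximum (ductal minus alveolar -1.66 ± 0.22, adjusted p = 0.000215) and did not separate ductal progenitors from NCL cells (adjusted p = 0.975).

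Muc4, the ERBB2-binding mucin, was dim. It read 6.04 and 5.35 in wild-type and 5.55 and 6.07 in knockout alveolar progenitors, and 4.99 to 5.25 on the other 12 arrays. No array outside alveolar progenitors reached the lowest alveolar one. The differences from alveolar progenitors were -0.60 ± 0.14 in ductal progenitors (adjusted p = 0.00703), -0.59 ± 0.14 in NCL cells (adjusted p = 0.00651) and -0.63 ± 0.14 in myoepithelial cells (adjusted p = 0.00338). All 3 were lost without knockout mouse 2, at adjusted p = 0.157, 0.164 and 0.0849, and in the wild-type arrays alone, at adjusted p = 0.168, 0.141 and 0.117. The other Muc4 probe set stayed between 4.53 and 4.80 on all 16 arrays, under the lower quartile, and showed no such maximum (ductal minus alveolar 0.03 ± 0.07, adjusted p = 0.832). The 2 Muc4 probe sets therefore disagree.

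Dmbt1 read 9.96 and 10.73 in wild-type NCL cells and 9.27 and 10.66 in wild-type ductal progenitors. In wild-type alveolar progenitors it read 6.26 and 5.94, close to the wild-type myoepithelial readings of 5.89 and 6.15. The 4 wild-type arrays of Sca1 positive luminal cells thus lay far above the other 4. As the mean of genotypes, the Dmbt1 difference from alveolar progenitors was 4.25 ± 0.35 in NCL cells (adjusted p = 2.23e-06) and 4.08 ± 0.35 in ductal progenitors (adjusted p = 6.35e-06). Non-clonogenic luminal cells and ductal progenitors differed by 0.17 ± 0.35 (adjusted p = 0.992). Myoepithelial cells differed from alveolar progenitors by -0.77 ± 0.35 (adjusted p = 0.110), and this difference passed the threshold without the array of alveolar progenitors from knockout mouse 1 (-1.20, adjusted p = 0.0123).

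Read against all genes, the members' differences between populations sat on a high background. Against alveolar progenitors all 5 genes were called in ductal progenitors, where 22% of all genes were, and in NCL cells, where 28.5% were. In both comparisons the 4 mucins were lower and Dmbt1 higher, with a median of the 5 differences of -1.68 and -2.20 beside medians over all genes of 0.01 and 0.03. In myoepithelial cells 4 of 5 were lower than in the mean of the luminal populations (48% of all genes called), 4 than in alveolar progenitors (36.5%), 4 than in ductal progenitors (41.7%) and 2, Muc1 and Dmbt1, than in NCL cells (45%). Against ductal progenitors the Muc20 call (-0.48 ± 0.11, adjusted p = 0.00312) was lost with the mean of both probe sets (0.0653) and in wild type alone (0.0999). The second Muc20 probe set gave -0.19 ± 0.22 there (adjusted p = 0.528). Between NCL cells and ductal progenitors, where 0.795% of all genes were called, 3 mucins were lower in the former, Muc1, Muc15 and Muc20. Of these, Muc15 was called under every alternative and every left-out library, Muc1 in 12 and Muc20 in 4 of 20 fits that left out a mouse or an array. Muc1 was not called there without either knockout mouse (adjusted p = 0.595 without mouse 1 and 1 without mouse 2) nor without 6 single arrays, the wild-type ductal array of mouse 1, the wild-type NCL array of mouse 2 and all 4 knockout arrays of these populations (adjusted p = 0.0585 to 0.151).

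The genes whose pattern over the 8 group means was most like each member were taken from 5443 genes with a span of at least 1 log2 unit. For Muc1 they were Trim46 (r = 0.993), Myo6 (0.991) and Rnf125 (0.987). For Muc15 they were Ttpa (r = 0.995), Gjb2 (0.986) and Plb1 (0.985), and for Muc20 Arhgap6 (0.993), Trpm6 (0.992) and Atp10b (0.991). For Muc4 they were Gabrg3 (r = 0.987), Sox6 (0.985) and Vamp1 (0.982). For Dmbt1 they were Fam25c (r = 0.995), Fxyd2 (0.993), which is also in the hormone-sensing list, and the sodium iodide symporter Slc5a5 (0.990). Among the members, over 16 arrays, Muc15 went with Muc20 at r = 0.932, Muc1 with Muc20 at 0.913 and Muc1 with Muc15 at 0.899. Dmbt1 correlated with the mucins at -0.107 to -0.369. These arrays share 4 mice and 4 populations, so the coefficients are descriptions.

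The knockout comparison asks which of these RNAs changed when Cpeb2 was absent. In ductal progenitors Muc15 fell and Dmbt1 rose in knockout, and Muc1, Muc4 and Muc20 did not pass the threshold in any population. The plot of the knockout differences shows Muc15 in ductal progenitors as the largest of the 20 differences in size.

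**Figure D2:**
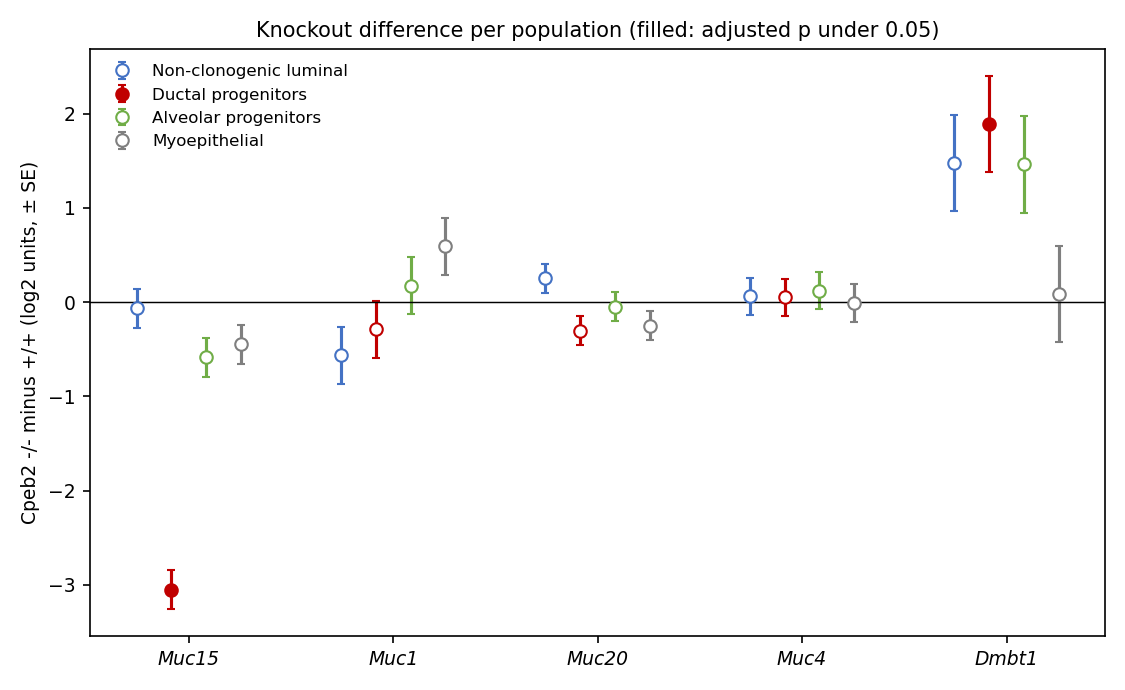
Difference of Cpeb2 -/- minus Cpeb2 +/+ (y axis, log2 units) for each gene (x axis) in the 4 populations (colours), with bars of ± 1 standard error of the limma fit and filled symbols for an adjusted p under 0.05. The 2 filled points are Muc15 (-3.05 ± 0.21) and Dmbt1 (1.89 ± 0.51), both in ductal progenitors.

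Muc15 in ductal progenitors read 8.76 and 8.13 in the wild-type mice and 5.28 and 5.50 in the knockout mice. The groups did not overlap, and the knockout readings lay just above the lower quartile of all probe sets, 5.13. The difference was -3.05 ± 0.21 log2 units, or 8.29-fold (limma, 2 mice per genotype, adjusted p = 8.91e-05, the smallest p of 17097 genes). It was -3.48 within the first parent pair and -2.62 within the second. From the spread of the 4 ductal arrays alone the difference of -3.05 had an adjusted p of 0.03. It was called in each of 9 alternatives and 20 fits without a mouse or an array, with adjusted p from 1.57e-05 to 0.0310. As 25 genes fell by this much or more, the size was at rank 25 while the p ranked first.

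In alveolar progenitors, where Muc15 is brightest, both knockout arrays (9.35 and 9.60) lay below both wild-type arrays (9.82 and 10.30). The difference there was -0.59 ± 0.21 and did not pass the threshold (adjusted p = 0.328), except without wild-type mouse 1 (-0.83, adjusted p = 0.0306). In myoepithelial cells the difference was -0.45 ± 0.21 (adjusted p = 0.352) and in NCL cells -0.06 ± 0.21 (adjusted p = 0.906). In these populations both genotypes read under the lower quartile, so a fall from there could hardly be seen. Over the mean of the 4 populations Muc15 was called at -1.04 ± 0.11 (adjusted p = 0.000404), and all 20 left-out fits kept this call.

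The knockout difference of Muc15 was not the same in all populations. An F test over the 4 within-population differences gave an adjusted p of 0.00474, with 0.667% of all genes called and Muc15 the member called. The difference in ductal progenitors exceeded that in alveolar progenitors, the population in which a fall could be read, by -2.46 ± 0.29 (adjusted p = 0.0129; 0.24% of all genes called). Against the mean of the 3 other populations it was -2.68 ± 0.23 (adjusted p = 0.00149), and Muc15 was the single gene of 17097 called (0.00585%). Both of these last comparisons were added after the values had been seen. Averaged over the Sca1 positive luminal populations against the other 2, the difference was -1.04 ± 0.20 (adjusted p = 0.0236, 4.71% of all genes called). Apart from the one against alveolar progenitors, these tests include NCL and myoepithelial cells. Muc15 read under the lower quartile there in wild type already, so a fall of like size could not show. The call on Sca1 positive cells was lost without knockout mouse 1 (adjusted p = 0.282) or 2 (adjusted p = 0.254) and without 7 single arrays, the knockout alveolar arrays of both mice, the knockout ductal and myoepithelial arrays of mouse 1, the knockout NCL array of mouse 2 and the wild-type NCL and alveolar arrays of mouse 1 (adjusted p = 0.0501 to 0.0701). The call against alveolar progenitors was lost without knockout mouse 1 (adjusted p = 0.323) or 2 (adjusted p = 0.318) and without the knockout ductal array of mouse 1 (adjusted p = 0.0913) or 2 (adjusted p = 0.0627), with sizes of -2.57 to -2.36. The call against the other 3 populations was lost without knockout mouse 1 (adjusted p = 0.157) or 2 (adjusted p = 0.246), and the F test call without either of these mice.

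Dmbt1 in ductal progenitors read 9.27 and 10.66 in wild type and 11.66 and 12.04 in knockout. In NCL cells it read 9.96 and 10.73 against 11.92 and 11.72, and in alveolar progenitors 6.26 and 5.94 against 6.70 and 8.42. Knockout arrays lay above wild-type arrays without overlap in all 3 luminal populations, and knockout mouse 2 stood out in alveolar progenitors. With 2 arrays per genotype a lack of overlap is weak: Muc4 in NCL cells and Muc20 in NCL and myoepithelial cells, none called, did not overlap either. The share of all genes without overlap was not counted. In myoepithelial cells Dmbt1 read 5.89 and 6.15 against 6.07 and 6.14, and the genotypes overlapped. The difference was 1.89 ± 0.51 in ductal progenitors (3.70-fold, adjusted p = 0.0458), 1.48 ± 0.51 in NCL cells (adjusted p = 0.163), 1.46 ± 0.51 in alveolar progenitors (adjusted p = 0.322) and 0.08 ± 0.51 in myoepithelial cells (adjusted p = 0.966). Averaged over the 4 populations it was 1.23 ± 0.27 (adjusted p = 0.0146). Within the parent pairs the ductal difference was 2.40 and 1.38, the alveolar one 0.44 and 2.48. A test of whether the Dmbt1 difference varied between populations did not pass the threshold (F test, adjusted p = 0.397).

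The ductal call of Dmbt1 lay at the edge of the threshold. It was lost without either knockout mouse (adjusted p = 0.243 and 0.218), without wild-type mouse 1 (1.19, adjusted p = 0.368) and without 11 of 16 single arrays (adjusted p = 0.0528 to 0.396), and kept without wild-type mouse 2, without that mouse's ductal array and without either knockout alveolar or either wild-type myoepithelial array. The wild-type ductal array of mouse 1, the lowest of the 4, set the size: without it the difference was 1.20. The mean over populations was lost without wild-type mouse 1 (0.96, adjusted p = 0.0948) and without knockout mouse 2 (0.98, adjusted p = 0.101).

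The genotype difference of Muc1 was -0.56 ± 0.30 in NCL cells (adjusted p = 0.368), -0.29 ± 0.30 in ductal progenitors, 0.17 ± 0.30 in alveolar progenitors and 0.59 ± 0.30 in myoepithelial cells (adjusted p = 0.402). The genotypes overlapped in the 3 luminal populations and not in myoepithelial cells, where both knockout arrays were higher. Without wild-type mouse 2 the NCL difference was -1.01 and passed the threshold (adjusted p = 0.0476). Muc20 differed by 0.25, -0.31, -0.05 and -0.25 (each ± 0.15) in the same order of populations, none called. Without the wild-type ductal array of mouse 2 its ductal difference was -0.54 (adjusted p = 0.0292). Muc4 stayed within 0.12 of 0 in every population (each ± 0.20). Differences larger than their standard errors, such as that of Muc1 in myoepithelial cells (0.59 ± 0.30), did not pass the threshold either. Changes of such a size could therefore be missed in these 3 mucins.

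By comparison, 2 of the 5 members were called in ductal progenitors, where 7.44% of all genes were, and 2 in the mean of the populations, where 10.2% were. No member was called in NCL cells (2.06% of all genes), alveolar progenitors (0.62%) or myoepithelial cells (1.01%) by limma. Before adjustment, the limma p was under 0.05 for 2 members in alveolar progenitors, Muc15 and Dmbt1, for 1 in NCL cells, Dmbt1, and for 0 in myoepithelial cells. By p, Muc15 and Dmbt1 ranked 792 and 767 of 17097 genes in alveolar progenitors, and Dmbt1 ranked 1427 in NCL cells. Many genes thus had a smaller p. Since the members were chosen with these comparisons known, the counts are descriptions. The 4 comparisons share no arrays but share the 4 mice.

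Because ductal progenitors lie between the other luminal populations for most of these genes, their level was also expressed as a position within the same mouse, 0 being its NCL level and 1 its alveolar level. For Muc15 the position was 0.807 and 0.632 in the wild-type mice and 0.203 and 0.220 in the knockout mice. For Muc1 it was 0.389 and 0.368 against 0.341 and 0.405. The Muc15 positions of the genotypes did not overlap, whereas those of Muc1 did. For Muc20 the position was 0.436 and 0.234 against 0.082 and 0.154. Among genes of the alveolar list, Elf5 (0.787 and 0.516 against 0.279 and 0.359), Kit (0.765 and 0.692 against 0.355 and 0.491) and Cd14 (0.703 and 0.446 against 0.321 and 0.301) also lay lower in knockout. The milk protein gene Csn3 lay at 0.841 and 0.854 against 0.748 and 0.778, and lactotransferrin, Ltf, at 0.741 and 0.692 against 0.743 and 0.786. Csn1s1 (0.637 and 0.335 against 0.119 and 0.069) and Rspo1 (0.521 and 0.259 against -0.115 and 0.031), not plotted, lay lower in knockout. The genotypes overlapped for Aldh1a3 (0.741 and 0.600 against 0.590 and 0.677) and Mfge8 (0.527 and 0.425 against 0.469 and 0.387). They also overlapped for Lalba (-0.217 and 0.307 against 0.079 and 0.408). For Csn2 and Wap the NCL and alveolar levels differed by at most 0.43 log2 units, and no position is given.

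**Figure D3:**
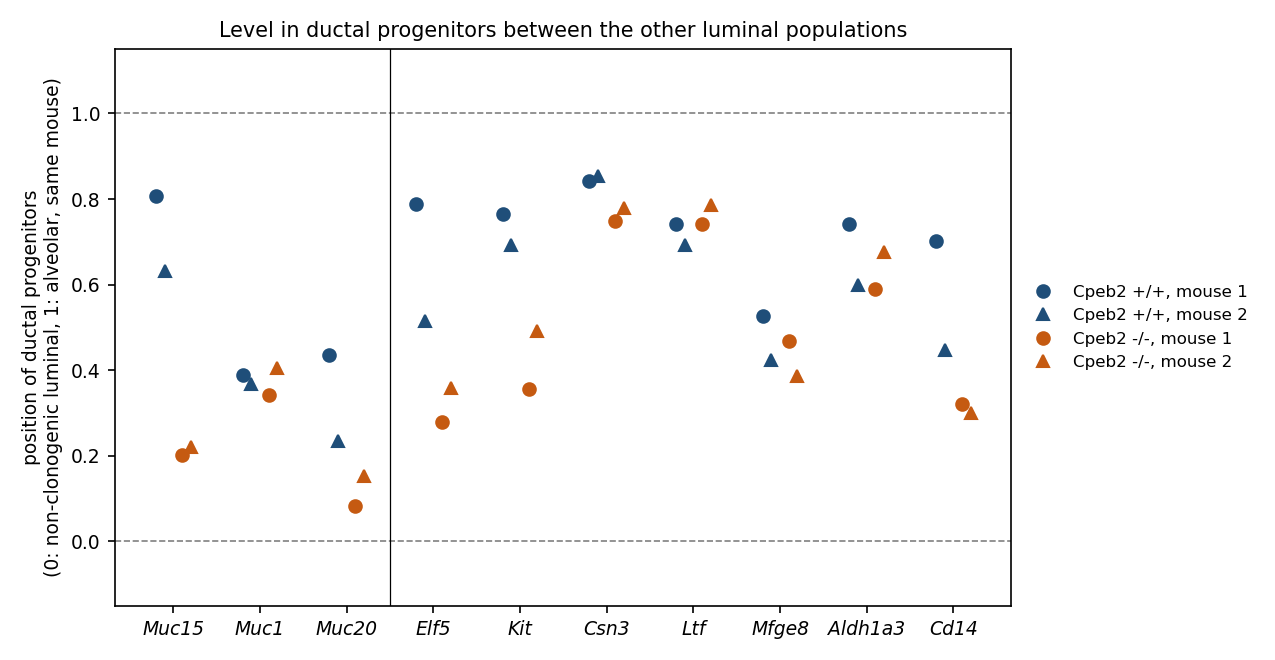
Position of ductal progenitors (y axis, no unit) between NCL cells (0) and alveolar progenitors (1) of the same mouse, for 3 mucins on the left of the vertical line and 7 genes of the alveolar list on the right. Circles are mouse 1 and triangles mouse 2, blue wild type and orange knockout. Muc15 sits at 0.807 and 0.632 in wild type and 0.203 and 0.220 in knockout, and Muc1 between 0.341 and 0.405 in both. Positions are descriptions without a test.

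Several other measures moved with genotype in ductal progenitors, beside Muc15 and Dmbt1, where 7.44% of all genes were called. Of 12 alveolar markers 3 fell in knockout, Kit (-1.76), Elf5 (-1.61) and Rspo1 (-1.20), and their mean log2 value was 8.82 and 8.31 in wild type against 7.83 and 8.30. Of 9 hormone-sensing markers 4 rose, Fxyd2 (2.29), Ly6d (2.07), Esr1 (0.91) and Prom1 (0.86), with a mean of 9.69 and 10.20 against 11.12 and 10.96. Of 7 fibroblast markers Dcn fell (-1.84), with a list mean of 8.24 and 6.75 against 6.55 and 6.28. Of 15 cell cycle genes 13 fell and 0 rose, with a list mean of 10.0 and 9.20 against 7.15 and 6.76. The 3′ minus middle difference of the Gapdh control probe sets, a measure of RNA length, was 0.599 and 0.388 in wild type and 0.154 and 0.121 in knockout. In bulk samples, fewer cells of a type and less RNA per cell cannot be told apart, and the part of these shifts in the Muc15 and Dmbt1 differences was not tested. In alveolar progenitors this Gapdh measure was higher in knockout, at 0.494 and 0.232 against 0.143 and 0.181. The like measure of the beta-actin control overlapped there, at 0.0425 and -0.0195 in knockout against -0.0362 and 0.0331 in wild type. In ductal progenitors the beta-actin one was 0.0497 and 0.0635 in knockout against 0.115 and 0.268 in wild type.

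The 3 genes most like Muc15 also fell in knockout ductal progenitors, Ttpa (-1.94, adjusted p = 0.00499), the gap junction gene Gjb2 (-1.67, adjusted p = 0.0266) and Plb1 (-1.85, adjusted p = 0.00144). Of the genes most like Dmbt1, Fxyd2 rose by 2.29 (adjusted p = 0.0115) and Slc5a5 by 2.81 (adjusted p = 0.0269), and Fam25c differed by 1.33 (adjusted p = 0.0755). Likeness over the 8 group means uses the ductal knockout mean itself, so these differences follow in part from the choice.

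Genes around the mucins were counted by fixed lists, shown for ductal progenitors in the plot of gene lists, where the median difference of all genes was 0.08. For the knockout in ductal progenitors 7.44% of all genes were called. Of 12 other measured genes listed as mucins, 2 rose in knockout and none fell: the sialomucin Podxl by 1.01 ± 0.27 (adjusted p = 0.0445) and Muc16, the CA125 mucin, by 0.74 ± 0.12 (adjusted p = 0.0103). The list's median was 0.17. Muc16 also rose in NCL cells (0.86 ± 0.12, adjusted p = 0.00803). Mcam, in the list although it is not a mucin, rose in myoepithelial cells (0.80 ± 0.13, adjusted p = 0.0181). The endothelial list mean there was 6.82 and 7.40 in knockout against 6.45 and 6.49 in wild type, and its part was not tested. Muc13, another membrane mucin, differed by 1.48 ± 0.42 in ductal progenitors and missed the threshold (adjusted p = 0.0527). The 4 mucins described here were, by the probe sets used, lower in NCL than alveolar cells. Unlike them, Muc13 (2.47), Podxl (1.14), Muc16 (0.67) and Cd164 were called higher there, and no gene of the list of other mucins was called lower. That is 33.3% of the list, beside 28.5% of all genes called in either direction.

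**Figure D4:**
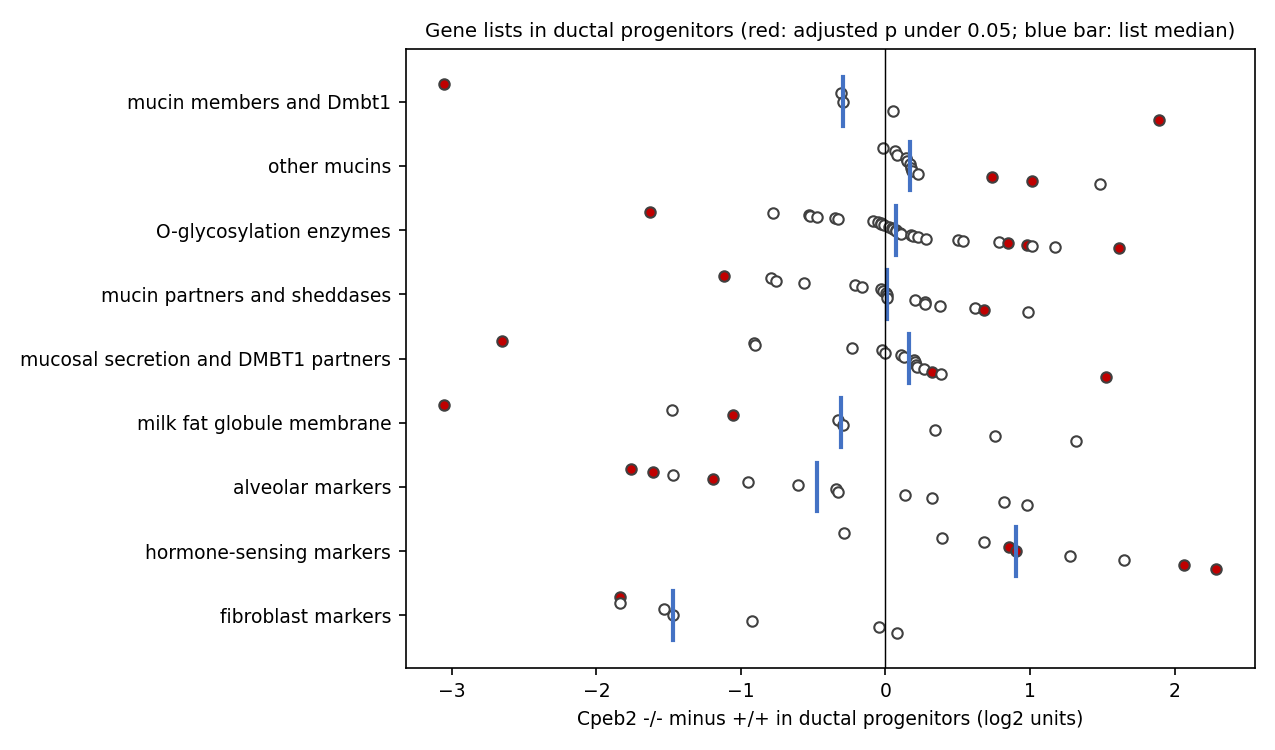
Cpeb2 -/- minus Cpeb2 +/+ in ductal progenitors (x axis, log2 units) for every measured gene of 9 lists (y axis), with red for an adjusted p under 0.05 and a blue bar for the list median. The leftmost point is Muc15 (-3.05), shown in the first list and again in the milk fat globule membrane list, and the members' rightmost point is Dmbt1 (1.89). The hormone-sensing median is 0.91, the alveolar median -0.47 and the fibroblast median -1.47.

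Of 31 enzymes that build O-linked glycans, 3 rose and 1 fell in knockout ductal progenitors, and the list's median was 0.07. The risers were Galnt9 (1.61) and Galnt11 (0.85), which start O-linked chains, and the sialyltransferase gene St3gal1 (0.98), while St3gal6 fell (-1.63). St3gal1 was also called over the mean of the populations, at 0.90. Of 18 genes for mucin partners and sheddases, Mmp14, a membrane protease, rose (0.68) and moesin, Msn, which links membrane proteins to actin, fell (-1.12), with a median of 0.01. Met, the receptor that MUC20 binds, differed by -0.79 ± 0.33 (adjusted p = 0.146). Met (-2.98 ± 0.23) and Egfr (-2.17 ± 0.13) were lower in NCL cells with alveolar progenitors as reference. In that comparison 5 of the 18 partner and sheddase genes were lower and 3 higher. That is 44.4% of the list, beside 28.5% of all genes.

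Muc1 and Muc15 belong to a list of 8 measured genes of the milk fat globule membrane. In knockout ductal progenitors Muc15 and Plin2, a lipid droplet coat gene (-1.05 ± 0.25, adjusted p = 0.0311), fell and none rose, with a median of -0.31. Btn1a1, butyrophilin, differed by 1.32 ± 0.49 (adjusted p = 0.107) and Mfge8, lactadherin, by -0.33 ± 0.28 (adjusted p = 0.453). In NCL cells 5 of the 8 were lower than in alveolar progenitors and none higher: Btn1a1 (-5.76), Muc15 (-5.44), Mfge8 (-3.17), Muc1 (-3.08) and Plin2 (-1.75). In that comparison 28.5% of all genes were called in either direction. Of 13 epithelial transcription factors of the ETS, KLF and related families, Elf5 (-1.61, adjusted p = 0.0263), a factor of the alveolar lineage, and Ehf (-1.16, adjusted p = 0.0385) fell in knockout ductal progenitors and none rose. In ductal against alveolar progenitors 5 of the 13 were lower, Elf5 (-2.51) and Ehf (-1.67) among them, and 4 were higher. In that comparison 22% of all genes were called.

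Dmbt1 is 1 of 18 measured genes with scavenger receptor cysteine-rich domains and was the one called in knockout ductal progenitors (list median 0.14). Dmbt1 was also the one family member called higher in NCL cells than in alveolar progenitors, where Scara5 (-2.01), Prss12 (-0.69) and Cd163 (-0.18) were lower. Cd163 read under the lower quartile on every array, so its difference is one near the floor. In that comparison 22.2% of the family was called, beside 28.5% of all genes. Of 16 genes for mucosal secretion and DMBT1 partners, Reg3g, an antibacterial lectin, rose by 1.53 ± 0.41 (adjusted p = 0.0465), Ern2 by 0.32, and Sftpd, the gene of surfactant protein D, a ligand of DMBT1, fell (-2.65 ± 0.58, adjusted p = 0.0255) in knockout ductal progenitors. In NCL cells Sftpd (-3.04 ± 0.58, adjusted p = 0.0251) and Lcn2 (-2.46 ± 0.17, adjusted p = 7.9e-05) fell. Dmbt1 and Sftpd thus had differences of opposite sign in both Sca1 positive populations, with the Dmbt1 one in NCL cells short of the threshold. Pigr, which carries antibodies across epithelia, rose in knockout alveolar progenitors (1.02 ± 0.11, adjusted p = 0.00184). These lists were drawn up with results of these arrays known, and their counts are descriptions.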

How the data were processed

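RNA of 16 sorted samples, amplified from 15 ng, was hybridised to Affymetrix arrays. The deposited values are on a log2 scale per the file headers and values; the submitters' processing notes name RMA and limma, without version or role. Of 45141 probe sets, 28898 had 1 gene symbol, 551 several and 15588 none, and 104 were controls. Each of 17097 genes was represented by its brightest probe set on average. limma 3.58.1 (R 4.3.3, statmod 1.5.0) fitted 8 group means with the mouse as random block (consensus correlation 0.0383) and a trended variance. P-values were Benjamini-Hochberg adjusted over all genes, and called means below 0.05. The code was tested on simulated data.

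The members and lists were chosen with earlier results of these data known. All members are named, and of each list up to 4 called genes with the largest differences; Met, Muc13, Mfge8 and Btn1a1 were named, where not called, after their values were seen. Genes alike were the 3 with the highest r over 8 group means, among genes above the median probe set (6.38) and spanning at least 1 log2 unit. Same-numbered mice share parents per the labels, but their deviations from group means correlated at 0.0737, -0.00688, 0.0593 and -0.0432 in non-clonogenic, ductal, alveolar and myoepithelial arrays. Alternatives changed the block, trend, array weights, scaling, filter, probe set rule and samples.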

Additional observations from a re-analysis of the deposited data

Results flagged for a closer look

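The Muc15 knockout difference varied between populations, which is why it is listed here: the F test over 4 populations gave an adjusted p of 0.00474. The interaction terms were -2.46 log2 units for ductal against alveolar progenitors, -2.68 for ductal progenitors against the mean of the 3 other populations, and -1.04 for Sca1 positive luminal cells against the other cells. Each rests on 2 mice per genotype, and the first 2 of these terms were chosen after the data were seen. Apart from the first term, these and the F test include NCL and myoepithelial cells, where Muc15 had little room to fall.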

How the results depend on the processing

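Muc15 in knockout ductal progenitors was called in all 9 alternatives (-3.05 to -3.01). Members called there numbered 1 rather than 2, Muc15 alone, with no trend, with array weights, with every probe set tested and with the 4 ductal arrays alone; Dmbt1 then had adjusted p = 0.0559, 0.0758, 0.0523 and 0.131. Members called in myoepithelial against NCL cells numbered 1 in knockout arrays alone, and in NCL cells against ductal progenitors 1 in wild-type arrays alone. Over fits without 1 mouse or 1 array, members called ranged from 0 to 1 for knockout in NCL cells and in alveolar progenitors, from 1 to 3 in ductal progenitors, from 1 to 2 in the mean of populations, and from 0 to 2 for the Sca1 positive contrast. They ranged from 1 to 3 for myoepithelial against NCL cells, from 1 to 3 for NCL cells against ductal progenitors, and from 0 to 1 for the ductal interaction terms and the F test. The causes were not tested. With the parent pair as replicate block, Dmbt1 in ductal progenitors had adjusted p = 0.028 and Muc20 between NCL cells and ductal progenitors was lost (adjusted p = 0.0693), and no other member call changed. Of 2230 other member values, 80 lost the call and 16 gained it. The sign changed in 85, none of them called with either sign (smallest adjusted p after the change 0.18).

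All genes called for knockout in ductal progenitors numbered 1272, against 847 with array weights, 2632 with every probe set tested, 69 with 4 arrays alone and 17 to 3393 without a mouse or array. In NCL cells they numbered 353, against 583 with every probe set and 86 with 4 arrays alone, in alveolar progenitors 106 against 389 with array weights, and in myoepithelial cells 173 against 50 with array weights, 336 with every probe set and 0 with 4 arrays alone. Between NCL cells and ductal progenitors they numbered 136, against 48 in wild-type and 47 in knockout arrays alone. Signal limits Muc15 outside progenitors and Muc4 throughout, where readings lie near or under the lower quartile.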
